A study of Mus musculus with 20 samples.

Results

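The long-chain acyl-CoA synthetases and the fatty acid transport proteins are the enzymes that activate fatty acids in the liver cell. The set comprised 9 genes, which were the synthetases Acsl1, Acsl3, Acsl4, Acsl5 and Acsl6 and the transport proteins Slc27a1, Slc27a2, Slc27a4 and Slc27a5. Every probe that is not a control and carries one of these gene names in the array annotation was taken, which gave 19 of the 41174 different probes on the array. Of the 9 genes, 8 were among the 14515 named genes that could be tested. The genes, and Acsl4 as the one set against the rest, were chosen by the responder and non-responder levels of these same livers. Differences of members between the groups are therefore a description, given with standard errors (SE) and intervals and with no test.

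Responder livers were taken from 10 male C57BL/6J mice that the labels class as susceptible to diet-induced obesity. Non-responder livers came from 10 male mice of the same inbred strain classed as resistant. Both groups ate, from weaning on, high-fat food that supplied 60% of energy as fat, both were sampled at 6 weeks of age, and no chow-fed group was analysed here. The comparison asks which liver transcripts separate mice that are prone to obesity on this food from mice that resist it. The labels give neither the criterion for a response nor animal identifiers, so the p-values below measure the spread between these samples.

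Activation joins a fatty acid to coenzyme A, which traps it in the cell and makes it a substrate for oxidation, for triglyceride and phospholipid synthesis, or for elongation. Family members differ in the fatty acids they prefer and in where in the cell they sit. Acsl1 is the main long-chain synthetase of the hepatocyte and a target of PPARA, the nuclear receptor that drives fatty acid oxidation. Acsl4 prefers arachidonate and other polyunsaturated fatty acids and feeds them into membrane phospholipids, where they are the substrate of lipid peroxidation. Slc27a2 and Slc27a5 are the liver's most typical transport proteins and have synthetase activity themselves.

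Each liver was hybridised to 1 single-colour array of 60-base probes. Between 55.8% and 71.2% of the spots of an array were well above background, 0 were saturated, and arrays correlated with each other at r of 0.963 to 0.991. The arrays belonged to 2 slide series, scanned on separate days. The first held 4 responders and 6 non-responders and the second 6 responders and 4 non-responders. The array's 75th percentile of signal was 279.1 to 417.3 in the first series and 413.4 to 657.5 in the other. Levels below are log2 signal relative to that percentile, ± gives the SD over the 10 livers of a group unless another number of livers is named, and they compare samples for 1 probe, not probes with each other. Of 8 hepatocyte markers, 7 were well above background on all 20 arrays. In responders 5 stood higher and 3 lower, with 0 past the adjusted threshold. By series, 2 were higher and 6 lower in the first, and 5 higher and 3 lower in the second. The widest differences were -0.50 (SE 0.27) for Tat, an enzyme of tyrosine breakdown, -0.22 (SE 0.13) for the transcription factor Hnf4a and 0.19 (SE 0.09) for the cytochrome Cyp2e1. Within the first and second series they were -0.94 and -0.07 for Tat, -0.56 and 0.13 for Hnf4a, and -0.03 and 0.41 for Cyp2e1.

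Members of a family resemble each other in sequence, so their probes were compared. The ends of the coding sequences of Acsl4 and Acsl3 are shown first, because an Acsl4 probe and the Acsl3 probe both cover them. Stop codons are in capitals, and the sequences run 5′ to 3′ on the transcript strand.
Acsl4: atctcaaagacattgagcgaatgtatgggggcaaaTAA
Acsl3: ttgagcggatgtatggaaggaaaTAA
Before the stop codon, 19 of the last 23 bases were identical. The Acsl4 stretch belongs to the probe at chrX:138755198-138755257 and the Acsl3 stretch to the probe at chr1:78702965-78703024, in the mm9 coordinates of the array annotation.

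The probes that represent Slc27a2 and Slc27a4 also fall on a shared stretch of the coding sequence. Capitals mark the bases that are identical in the best alignment without gaps, 26 of 44 aligned bases.
Slc27a2: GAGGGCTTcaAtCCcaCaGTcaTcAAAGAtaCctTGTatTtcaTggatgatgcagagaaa
Slc27a4: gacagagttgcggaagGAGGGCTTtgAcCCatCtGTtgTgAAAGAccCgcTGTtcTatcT
The Slc27a2 probe lies at chr2:126413550-126413609 and the Slc27a4 probe at chr2:29671115-29671174, both on the plus strand of mm9. Over all 156 pairs of probes of different members, the longest run of bases in common was 10 and the median was 5. Hybridisation of a member's RNA to another member's probe was not tested.

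Of the 19 probes, 14 had signal well above background on 5 or more arrays of a group and were kept, and 13 of these were so on all 20 arrays. The kept probes cover 8 members, each represented by its brightest probe, and Acsl6 had no kept probe. The limma fit ran over 17200 rows, each a gene or an unnamed probe. Between responders and non-responders 0 rows (0%) had a Benjamini-Hochberg adjusted p under 0.05, with 0.282 as the smallest, and the groups of livers did not overlap in 1 row (0.00581%). Without adjustment 1381 rows (8.03%) lay under 0.05, 746 of them higher (4.34%) and 635 lower (3.69%) in responders. Of the 8 measured members, 6 were lower and 2 higher in responders, 0 passed the adjusted threshold, 0 had groups that do not overlap, and 1 in each direction lay under the unadjusted one, Acsl4 lower and Slc27a4 higher. The median difference of the members was -0.04 on the log2 scale, and that of all rows was -0.0021. Since the members were chosen with these values known, nothing is read from the counts.

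**Figure D1:**
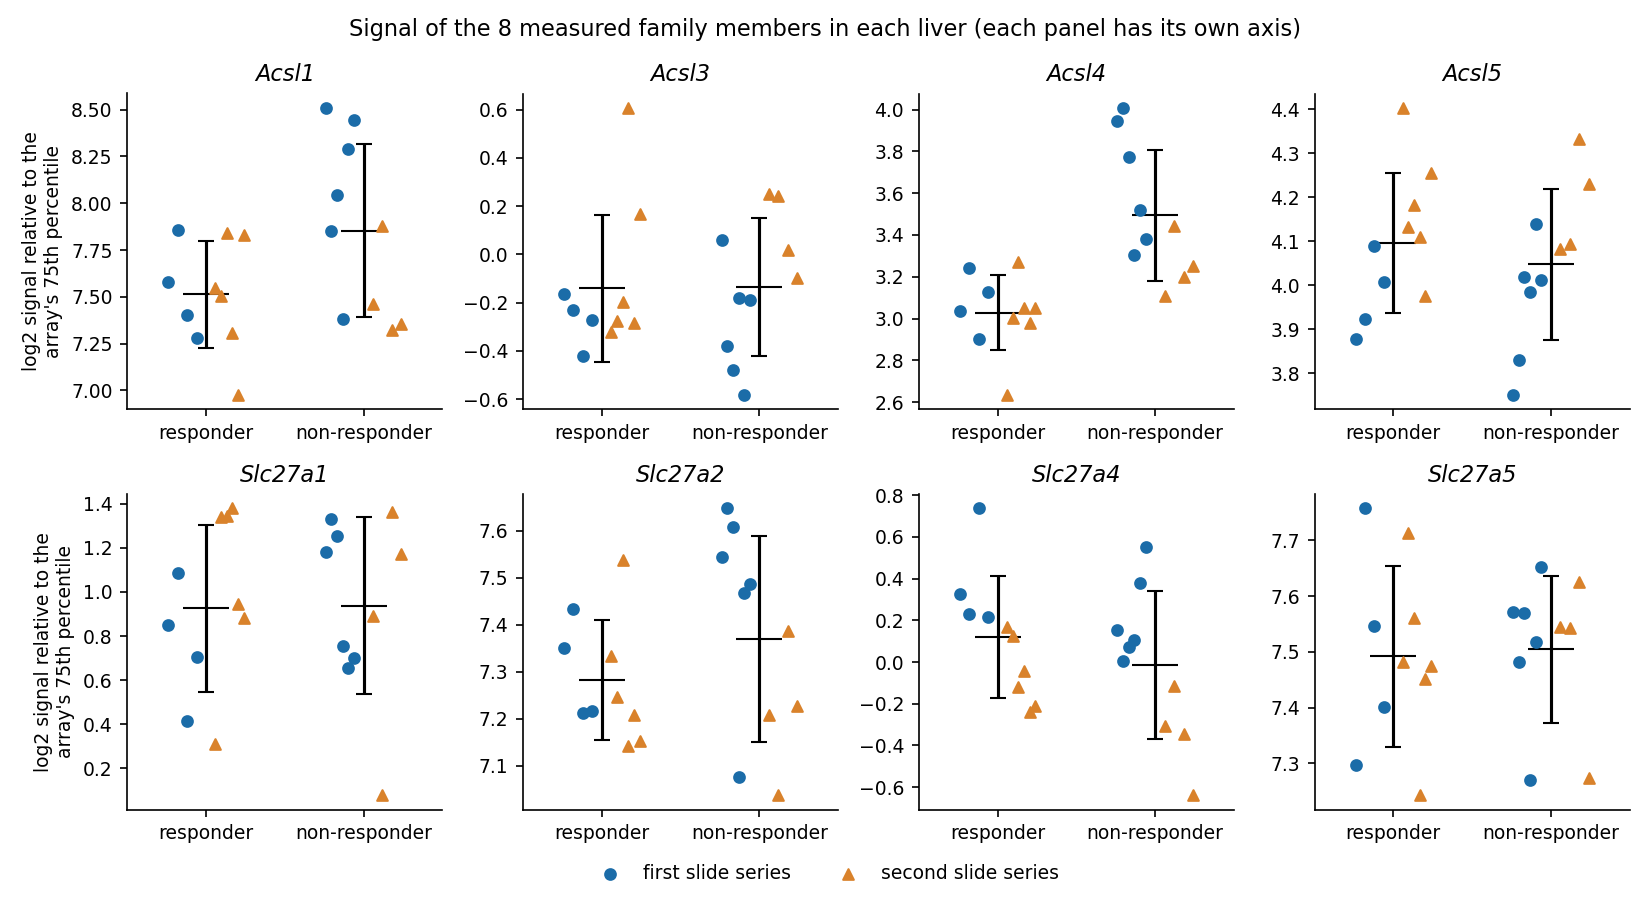
Level of each of the 8 measured members in every liver, as log2 signal relative to the array's 75th percentile, with responders left of non-responders. Points are livers (circles, first slide series; triangles, second slide series), the horizontal line is the group mean and the bar 1 SD (n = 10 each). Each panel has its own axis. For Acsl4, 7 of 10 responders lie below every non-responder, while the groups of the other members largely overlap.

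Acsl4 stood lowest in responders relative to non-responders among the members. Its level was 2.64 at the lowest, 3.04 at the median and 3.27 at the highest in responders, against 3.11, 3.41 and 4.01 in non-responders. Only 3 responders lay within the range of non-responders and 3 non-responders within the range of responders, so the groups overlap at their edges. On the array's own scale the processed signal was 2260 to 5985 in responders, with a median of 4210, and 3564 to 6650 in non-responders, with a median of 4565, far above background. The mean was 3.03 ± 0.18 for responders and 3.49 ± 0.31 for non-responders. With the slide series in the fit the difference was -0.42 (SE 0.10, 95% interval -0.63 to -0.20), a ratio of 0.749, and 9 of 10 responders fell under the average of the non-responders hybridised in the same series. Of all rows tested, 4.62% had a wider difference in either direction. In tissue RNA, less Acsl4 RNA per cell and fewer cells that express it cannot be told apart.

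The Acsl4 difference had the same sign in both slide series but not the same size. In the first series Acsl4 averaged 3.08 ± 0.14 in 4 responders and 3.66 ± 0.30 in 6 non-responders, a difference of -0.58. In the second it averaged 2.997 ± 0.21 in 6 responders and 3.25 ± 0.14 in 4 non-responders, a difference of -0.25. A difference between the series was not shown by the limma interaction test (0.33, SE 0.20, adjusted p = 0.601). Most of the wider gap in the first series lay on the non-responder side, where 3 livers were above 3.7.

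Both Acsl4 probes read lower in responders. The brighter one, which represents the gene, lies at chrX:138752602-138752661, 2596 bases further along the same transcript than the probe at the end of the coding sequence shown above. At the coding end it was 1.25 ± 0.23 for responders and 1.64 ± 0.34 for non-responders, a difference of -0.31 (SE 0.10, 95% interval -0.51 to -0.11). Split by series, this probe differed by -0.41 and then by -0.21. Between livers of the same group and series, the 2 probes varied together with a Pearson r of 0.655 (two-sided permutation p = 0.00869 and adjusted p = 0.0122 over 7 probe pairs, n = 20) and a Spearman rho of 0.624 (permutation p = 0.0118, adjusted p = 0.0165). Within the first series the correlation was 0.654, within the second 0.662, and it was 0.517 without the 2 livers farthest from the median.

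Acsl1 came next in size but was unevenly spread over the series. Its level was 6.98 at the lowest, 7.53 at the median and 7.86 at the highest in responders, against 7.33, 7.87 and 8.51 in non-responders, and 7 responders lay within the non-responder range. The mean was 7.51 ± 0.28 for responders and 7.86 ± 0.46 for non-responders, with a difference of -0.28 (SE 0.16, 95% interval -0.61 to 0.05). Within the first series responders averaged 7.53 ± 0.25 and non-responders 8.09 ± 0.42, a difference of -0.56. Within the second, responders averaged 7.501 ± 0.33 and non-responders 7.503 ± 0.26, a difference of -0.0024. The interaction was 0.56 (SE 0.30, limma adjusted p = 0.553), so a difference between the series was not shown. The other 2 Acsl1 probes, which lie 308 bases apart on the same transcript, differed by -0.15 (SE 0.25) and -0.19 (SE 0.24) and turned positive in the second series, at 0.40 and 0.37. In the first series these 2 probes differed by -0.69 and -0.75, so the uneven split is seen in every Acsl1 probe. Between livers of the same group and series, all 3 probes followed each other closely, with r of 0.928 to 0.971 (permutation adjusted p of 3.5e-05 to 4.67e-05).

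The other synthetases showed little separation. Acsl3, which is found on the endoplasmic reticulum and on lipid droplets, ranged from -0.42 to 0.61 with a median of -0.25 in responders, and from -0.58 to 0.25 with a median of -0.14 in non-responders. Its difference was -0.07 (SE 0.11, 95% interval -0.31 to 0.17), made up of 0.02 in the first series with -0.16 in the second. Acsl5, a synthetase of mitochondria and endoplasmic reticulum, ranged from 3.88 to 4.40 with a median of 4.10 in responders, and from 3.75 to 4.33 with a median of 4.05 in non-responders. Acsl5 differed by 0.0055 (SE 0.06, 95% interval -0.13 to 0.14), and by -0.43 (SE 0.34) under normexp background correction. For both genes at least 8 livers of each group lay within the range of the other group.

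Acsl6, which is best known from brain, was close to the detection limit in these livers. Its 4 probes were well above background on 3, 1, 1 and 0 of the 10 responder arrays and on 0 of the 10 non-responder arrays. The brightest of them had a processed signal of 3.15 at the lowest, 10.2 at the median and 24.2 at the highest in responders, against 2.76, 3.65 and 15.0 in non-responders. All 3 responder arrays with this probe well above background belonged to the second series. The responder mean did not exceed the lowest signal that counted as well above background in non-responders, so no fold is given.

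Among the transport proteins, the liver-typical members Slc27a2 and Slc27a5 differed by less than their error between the groups. Under normexp background correction both moved, Slc27a2 to -0.53 (SE 0.35) and Slc27a5 to -0.51 (SE 0.36). Slc27a2, which takes up and activates long and very long fatty acids, ranged from 7.14 to 7.54 with a median of 7.23 in responders, and from 7.04 to 7.65 with a median of 7.43 in non-responders. All 10 responders lay inside the non-responder range, and the difference was -0.06 (SE 0.08, 95% interval -0.22 to 0.11). A second Slc27a2 probe, 23135 bases away in the genome, gave 0.09 (SE 0.12). Within the first and second series the representing probe differed by -0.17 and 0.06, and the second probe by -0.18 and 0.36. The 2 probes correlated between livers at r = 0.661 (permutation adjusted p = 0.00712, n = 20) and rho = 0.626 (adjusted p = 0.0115), or r = 0.5 without the 2 farthest livers, and differed in the sign of a difference smaller than its error. Another probe with this gene name lies on the opposite strand, 43325 bases from the nearest other Slc27a2 probe, and reached the detection call on 3 responder arrays and 1 non-responder array, so it was not kept.

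Slc27a5 also activates bile acids before their conjugation. Its level ranged from 7.24 to 7.76 with a median of 7.48 in responders, and from 7.27 to 7.65 with a median of 7.54 in non-responders. With a difference of -0.0096 (SE 0.07, 95% interval -0.16 to 0.14) and -0.01 within each slide series, it was the most even member across the series.

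Slc27a4 stood highest in responders relative to non-responders among the members. This transport protein is best known from intestine and skin. Its level was -0.24 at the lowest, 0.15 at the median and 0.74 at the highest in responders, against -0.64, 0.04 and 0.55 in non-responders, and 9 of 10 responders lay within the non-responder range. The slide series moved Slc27a4 by more than the groups differed. With the series in the fit, the difference was 0.23 (SE 0.09, 95% interval 0.04 to 0.43), a ratio of 1.18, and 10 of 10 responders exceeded the average of the non-responders hybridised in the same series. Within the series it was 0.17 and 0.30, and 14.03% of all rows had a wider one. The second Slc27a4 probe, dimmer and detected on 9 arrays of responders and 8 of non-responders, gave 0.14 (SE 0.13). Within the first series it differed by 0.28 and within the second by 0.0064. This probe had r = 0.314 and rho = 0.343 with the brighter one (permutation adjusted p = 0.261 and 0.196).

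Slc27a1, the transport protein typical of muscle and fat, had probes that did not give the same reading. Its brighter probe ranged from 0.31 to 1.38 with a median of 0.91 in responders and from 0.08 to 1.36 with a median of 1.03 in non-responders, a difference of -0.03 (SE 0.17, 95% interval -0.39 to 0.33). The dimmer probe, 885 bases away, averaged -0.58 ± 0.28 for responders and -0.25 ± 0.28 for non-responders, a difference of -0.32 (SE 0.13, 95% interval -0.60 to -0.04). The correlation between both probes over livers was 0.198 (rho = 0.0857, permutation adjusted p = 0.437 and 0.744, n = 20). The dimmer probe was designed on a cDNA clone record and not on the RefSeq transcript of the brighter one, and which of them follows Slc27a1 was not tested.

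**Figure D2:**
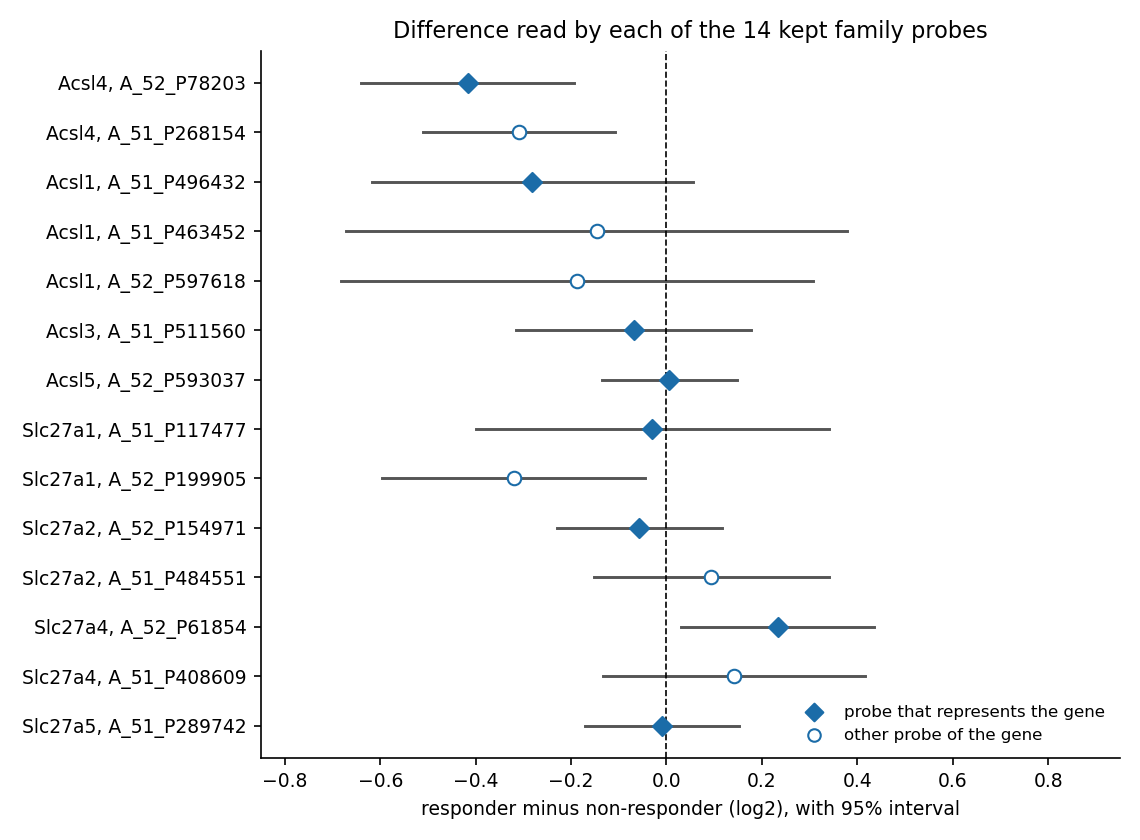
Responder minus non-responder difference on the log2 scale for each of the 14 kept probes. Lines are 95% intervals from a limma fit over all 41174 probes, kept or not. Filled diamonds are the probes that represent a gene and open circles its other probes. Both Acsl4 probes lie left of 0 with intervals that do not reach it, the 3 Acsl1 intervals span 0, and the 2 Slc27a1 probes differ.

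Acsl4 was also set against the rest of the family within each liver. The mean of the other 7 measured members was subtracted from the Acsl4 level, and the result was centred on the mean of the 20 livers. It ranged from -0.55 to -0.01 in responders and from -0.11 to 0.70 in non-responders, with averages of -0.21 ± 0.16 for responders and 0.21 ± 0.27 for non-responders. Every responder lay below the mean of the 20 livers. The difference was -0.39 (SE 0.09, 95% interval -0.58 to -0.19), or -0.47 within the first series and -0.30 within the second. The other 7 members had a median difference of -0.03, and 5 of them were lower in responders.

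**Figure D3:**
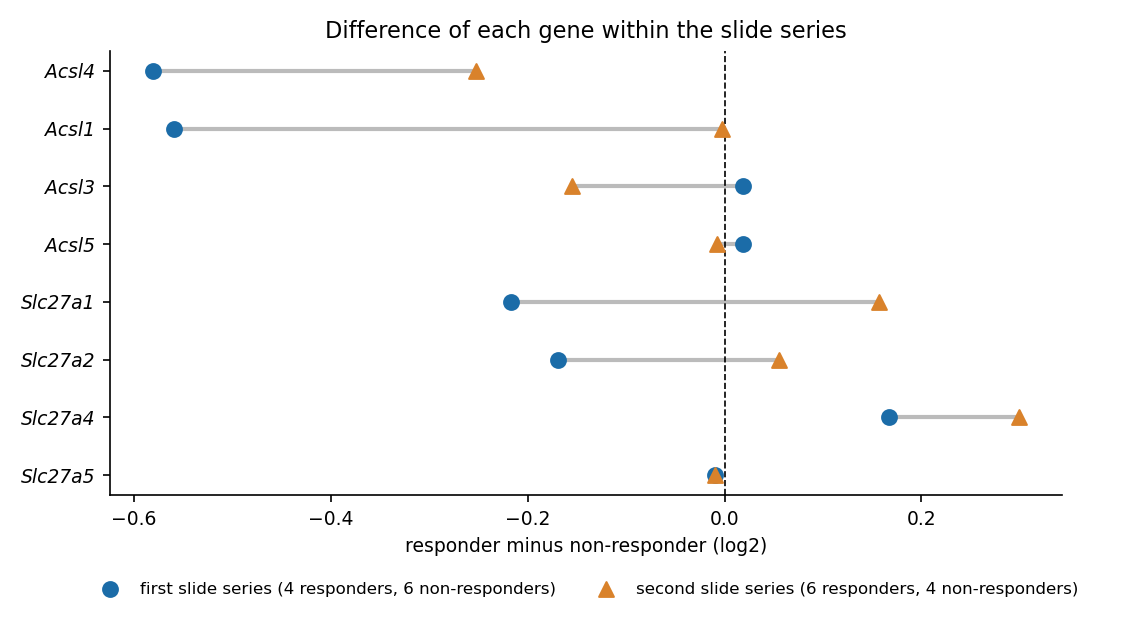
Responder minus non-responder difference of each measured member on the log2 scale, computed within the first slide series (circles, 4 responders and 6 non-responders) and within the second (triangles, 6 responders and 4 non-responders). Acsl4 lies left of 0 and Slc27a4 right of 0 in both series. Acsl1 lies at -0.56 in the first and at -0.0024 in the second.

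The slide series was a contrast that played no part in choosing the members. Of all rows, 30.3% passed an adjusted p of 0.05 between the second and the first series, 17.7% higher and 12.7% lower in the second, and 3 of the 8 measured members did, a share near that of all rows. Slc27a4 averaged -0.17 in the second series against 0.28 in the first, a fitted difference of -0.50 (SE 0.09, limma adjusted p = 0.000532). Acsl5 averaged 4.18 in the second series against 3.96 in the first (difference 0.22, SE 0.06, limma adjusted p = 0.0139), and Acsl3 averaged 0.01 against -0.28 (difference 0.31, SE 0.11, limma adjusted p = 0.0472). Acsl4 was 0.24 lower in the second series at an adjusted p of 0.0847, which did not pass. Both series held both groups, so the group differences above are taken within series. The group by series interaction was called for 0 of all rows (0%) and for 0 members, and 9.72% of all rows (3.74% positive and 5.97% negative) against 0 of 8 members lay under an unadjusted p of 0.05.

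Variation between livers of the same group was then used, which the choice of members did not draw on. Values were centred within each of the 4 combinations of group and slide series, and correlations were tested by two-sided permutation within these combinations. Of the 28 pairs of members, 0 passed an adjusted p of 0.05 and 6 lay under an unadjusted p of 0.05. Acsl4 had its widest inverse correlation with Acsl5 (r = -0.559, rho = -0.514, permutation p = 0.0273 for r and 0.0427 for rho, adjusted p = 0.173 and 0.239, n = 20) and its highest direct one with Slc27a1 (r = 0.502, rho = 0.52, permutation p = 0.0249 and 0.0275, adjusted p = 0.173 and 0.239). The first held with the same sign in both series, at -0.674 and -0.437, and was -0.473 without the 2 livers farthest from the median. The second was 0.876 and 0.254 within the series and 0.334 without the 2 farthest livers. Acsl4 and Acsl1, both lower in responders, had an r of 0.334 (permutation p = 0.249).

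Among 6 gene lists, Acsl1 had its widest correlation with the genes of fatty acid oxidation. Over the 20 livers its r with the mean of 21 PPARA target and oxidation genes was 0.721 (permutation p = 0.00146) and its rho 0.675 (permutation p = 0.00491). After adjustment over the 48 relations between members and gene lists the p was 0.0701 for r and 0.123 for rho, so neither passed. Within the first series r was 0.776, within the second 0.645, and it was 0.643 without the 2 livers farthest from the median (permutation p = 0.0186). Acsl1 also ran against the mean of 13 macrophage markers, with r = -0.702 and rho = -0.535 (permutation p = 0.00332 and 0.0214, adjusted p = 0.0797 and 0.256), which was -0.849 in the first series, -0.475 in the second and -0.505 without the 2 farthest livers. Slc27a5 had r = -0.601 and rho = -0.626 with the same markers (permutation p = 0.00939 and 0.00635, adjusted p = 0.15 and 0.123), at -0.749 and -0.409 within the series and -0.59 without the 2 farthest livers, and Slc27a2 had r = -0.548 and rho = -0.456 (permutation p = 0.0502 and 0.0609, adjusted p = 0.326 and 0.335), at -0.909 and 0.0048 within the series and -0.452 without the 2 farthest livers. The part of macrophage RNA in these levels was not tested. Over the 20 livers Acsl4 showed no such relation to the oxidation genes (r = -0.042, rho = -0.023, permutation p = 0.881 and 0.935). Its r was -0.23 within the first series and 0.253 within the second. The difference between the Acsl1 and Acsl4 correlations was not tested. With the macrophage markers Acsl4 had r = -0.424 and rho = -0.329 (permutation p = 0.126 and 0.185), at -0.721 and 0.0878 within the series. With the cell cycle list Acsl4 had r = -0.398 and rho = -0.368 (permutation p = 0.135 and 0.159), at -0.91 and 0.504 within the series. Of the 48 relations 0 passed the adjusted threshold and 6 lay under an unadjusted p of 0.05.

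**Figure D4:**
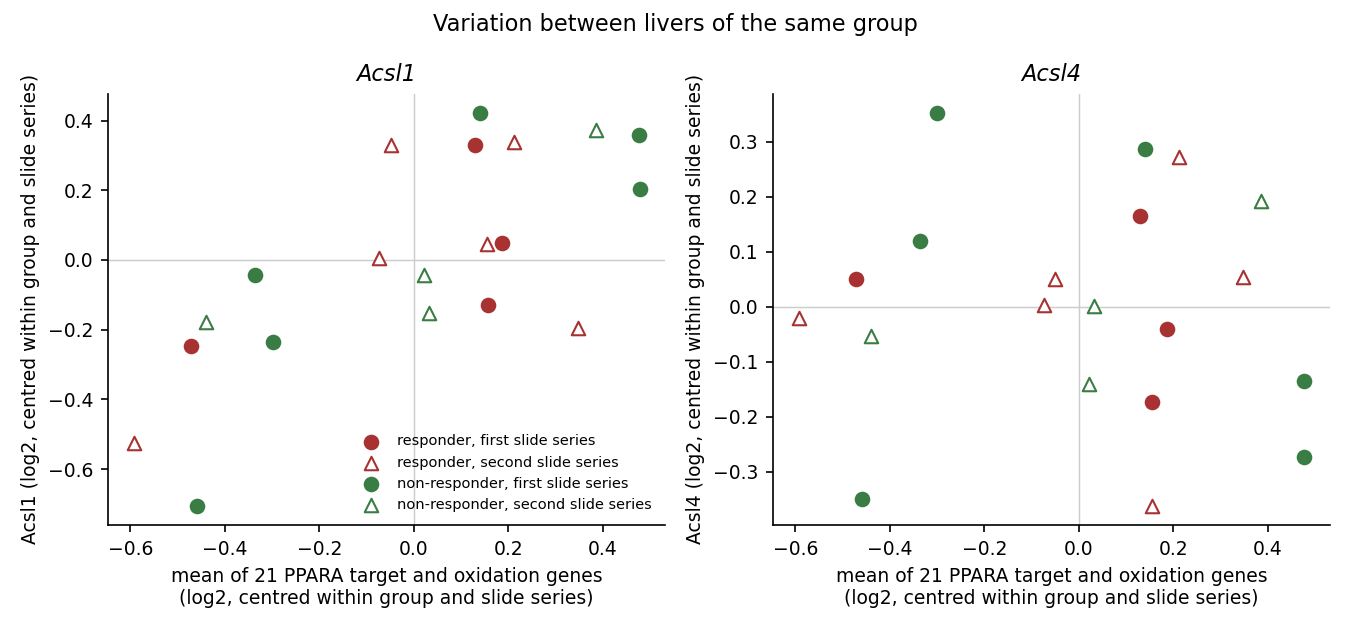
Acsl1 (left) and Acsl4 (right) against the mean of 21 PPARA target and oxidation genes, both log2 and centred within group and slide series. Each point is 1 of 20 livers, coloured by group, with circles for the first and triangles for the second slide series. The Acsl1 points run upward along the axis (r = 0.721), and the Acsl4 points show no slope over all 20 livers (r = -0.042). Within the first and second series the Acsl4 r was -0.23 and 0.253.

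The genes whose pattern over the 20 livers was most like that of Acsl4, by r of the centred values among 11896 genes, were Dhps (0.894), Slc31a1 (0.891), Mpc2 (0.878), Omd (0.863) and Gin1 (0.853). Dhps encodes the first enzyme of hypusine synthesis, Slc31a1 a copper importer and Mpc2 a subunit of the mitochondrial pyruvate carrier. For these 5 genes r was 0.883 to 0.975 within the first series and 0.717 to 0.852 within the second. The most opposed were Egln3 (-0.878), an oxygen-dependent prolyl hydroxylase, and Hdac11 (-0.87), a histone deacetylase. For Acsl1 the closest was Cpt2 (0.879), the mitochondrial carnitine palmitoyltransferase that follows acyl-CoA synthesis in oxidation and one of the 21 oxidation genes. Next came Timm9 (0.834), A1cf (0.83), Vwa8 (0.829) and Sidt2 (0.824). With 11896 genes ranked over 20 livers such values are a description, and the lists of the 2 members had 0 of these 5 genes in common.

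The pathways around the members were counted in the same fit. Of the 21 PPARA target and oxidation genes, 0 passed the adjusted threshold, 3 were higher and 18 lower in responders, and 1 lay under an unadjusted p of 0.05, against 3.69% of all rows in this direction. Their median difference was -0.15, against -0.0021 over all rows. The tilt was seen in the first slide series, where 2 of the 21 genes were higher and 19 lower, while in the second 12 were higher and 9 lower. Cyp4a14, a microsomal fatty acid hydroxylase, averaged 2.94 ± 1.60 for responders and 4.75 ± 1.97 for non-responders, a difference of -1.58 (SE 0.75, limma adjusted p = 0.621). Acot2, a mitochondrial thioesterase, differed by -0.42 (SE 0.22, adjusted p = 0.644). With the mean of the 21 genes as a covariate, added after the values were seen, the Acsl1 difference was -0.05 (SE 0.12) and the Acsl4 difference -0.40 (SE 0.12). That mean itself differed between the groups, by -0.32 (SE 0.17). The part of the oxidation genes in either difference was not tested.

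Lipogenic genes stood on the other side of 0. Of 13 measured genes of SREBP1c and lipogenesis, 11 stood higher in responders and 2 lower, the median difference was 0.21, 0 passed the adjusted threshold, and 3 lay under an unadjusted p of 0.05, against 4.34% of all rows in this direction. Slc25a1, the mitochondrial citrate carrier, averaged 4.84 ± 0.12 for responders and 4.60 ± 0.22 for non-responders, a difference of 0.21 (SE 0.08, limma adjusted p = 0.538). Between livers, Slc27a4 had r = 0.59 and rho = 0.624 with the oxidation list (permutation p = 0.0139 and 0.00767, adjusted p = 0.167 and 0.123), at 0.718 and 0.415 within the series and 0.527 without the 2 farthest livers. With the lipogenesis list it had r = -0.549 and rho = -0.537 (permutation p = 0.0244 and 0.0284, adjusted p = 0.235 and 0.273), at -0.621 and -0.485 within the series and -0.553 without the 2 farthest livers. Neither passed the adjustment.

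Genes that make or handle polyunsaturated fatty acids, the kind that Acsl4 prefers, were near level. Of 20 measured genes of arachidonate and polyunsaturated lipid handling, 9 stood higher in responders and 11 lower, the median difference was -0.04, and 0 lay under an unadjusted p of 0.05. Lpcat3, which places arachidonate into phospholipids, differed by 0.05 (SE 0.06), Mboat7, which places it into phosphatidylinositol, by 0.02 (SE 0.06), and Gpx4, which reduces phospholipid peroxides, by 0.04 (SE 0.07). The 2 genes of this list with the smallest unadjusted p were Fads2, a desaturase of polyunsaturated fatty acid synthesis, at -0.25 (SE 0.13, limma adjusted p = 0.644) and Lta4h, which makes leukotriene B4, at 0.10 (SE 0.08, adjusted p = 0.769). Alox5, Alox15, Ptgs2 and Ptges had no kept probe.

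Further lists of fatty acid use also held 0 genes past the adjusted threshold. Glycerolipid synthesis had 7 genes higher and 7 lower in responders with a median of -0.0061, among them Lpin2, a phosphatidate phosphatase, at -0.59 (SE 0.28) and Agpat1, an acyltransferase, at -0.22 (SE 0.11). Of 12 other acyl-CoA synthetases, 9 were higher and 3 lower with a median of 0.10, led by the medium-chain enzymes Acsm2 at 0.45 (SE 0.21) and Acsm1 at 0.12 (SE 0.08). Of 17 thioesterases, binding proteins and uptake proteins, 4 were higher and 13 lower with a median of -0.08 (8 higher and 9 lower in the first series, 3 higher and 14 lower in the second). Among the 13 was Acot3, detected on 4 arrays of responders and 6 of non-responders. Acot3 passed the filter only through the non-responders, so nothing is read from its direction. Under an unadjusted p of 0.05, 2 of the 17 were lower, against 3.69% of all rows in this direction. They were Fabp4, a binding protein of fat cells and macrophages, at -0.53 (SE 0.20, limma adjusted p = 0.538), and Them4, a thioesterase, at -0.18 (SE 0.07, adjusted p = 0.584). The bile acid genes that share a pathway with Slc27a5 were 5 higher and 4 lower with a median of 0.05 (2 higher and 7 lower in the first series, 7 higher and 2 lower in the second). Of these, Amacr, a racemase of bile acid side chains, differed by 0.12 (SE 0.08) and Scp2, a peroxisomal thiolase, by 0.05 (SE 0.04).

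Of the marker lists of other cells and the cell cycle genes, 0 genes passed the adjusted threshold. The counts at an unadjusted p under 0.05 below stand against 3.69% of all rows lower and 4.34% higher in responders. Of 8 measured adipose markers 7 were lower in responders, 6 of them under an unadjusted p of 0.05, and their mean ranged from -4.08 to -1.31 in responders and from -3.37 to 0.55 in non-responders. Plin1 was detected on 3 arrays of responders and 8 of non-responders, Ucp1 on 1 and 7 and Retn on 2 and 6. These genes passed the filter only through the non-responders, so nothing is read from their direction or from the counts that include them. Lep and Adrb3 had no kept probe. All 12 markers of stellate cells and fibroblasts lay lower for responders, 5 under an unadjusted p of 0.05, with means of 1.47 to 2.33 in responders and 1.67 to 2.55 in non-responders. Split by series, 5 of these were higher and 7 lower in the first and 12 lower in the second. Of 13 macrophage markers 10 were lower (1.70 to 2.71 in responders, 2.08 to 3.32 in non-responders), with 0 under an unadjusted p of 0.05, but the first series had 8 higher and 5 lower and the second 13 lower. Of 15 measured cell cycle genes 14 were lower, 8 under an unadjusted p of 0.05, with means of -3.0 to -1.91 in responders and -2.93 to -1.25 in non-responders. With the adipose mean as a covariate the Acsl4 difference was -0.39 (SE 0.13), and with the cell cycle mean it was -0.51 (SE 0.11). The adipose mean includes Plin1, Ucp1 and Retn, which passed only through the non-responders, so nothing is read from the fit that holds it. Acsl4 correlated with the cell cycle mean at -0.91 and 0.504 within the series, and a common covariate cannot follow both. The stellate cell and macrophage means were not used as covariates, so the part of cell makeup in the Acsl4 difference was not tested. Lymphocyte and blood cell markers were 6 higher and 5 lower (9 higher and 2 lower in the first series, 3 higher and 8 lower in the second), endothelial markers 4 higher and 5 lower, and cholangiocyte markers 5 higher and 2 lower. The lymphocyte marker Cd79a, among the 6 higher, was detected on 5 arrays of responders and 1 of non-responders. It passed the filter only through the responders, so nothing is read from its direction. The mean of pancreatic acinar markers, genes of digestive enzymes, ranged from -5.22 to 5.25 in responders and from -4.52 to 5.25 in non-responders, and their part in the member values was not tested.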

How the data were processed

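Agilent single-colour liver arrays of 10 responder and 10 non-responder mice were analysed. The deposited values are spot intensities from Agilent Feature Extraction, whose version reads 10.5.1.1 per the file headers but 9.1 in the submitters' processing notes. Background subtraction and spatial detrending went into the processed intensity, per the file headers. The authors' deposited table of processed intensity (33220 rows) served as an alternative and holds no Acsl3 or Acsl6 probe.

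Computed here were log2 processed intensities minus each array's 75th percentile, without control and outlier-flagged spots. Kept probes (26162) had signal well above background on 5 or more arrays of a group, and each gene was read from its brightest. The linear model of limma 3.58.1 (R 4.3.3) held group and slide series, p-values were adjusted by Benjamini-Hochberg with 0.05 as threshold, and the fit was tested on simulated data. Correlations used 100000 permutations within group and series. The number of arrays limits the precision.

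Members, gene lists and tests were chosen with earlier results of these data known. Named were all members, the 5 most alike genes of Acsl4 and Acsl1, and the 2 genes with the smallest unadjusted p of each pathway list other than the cell cycle list. A gene that this rule names is not reported here. Lpcat3, Mboat7, Gpx4, Acot3, Egln3, Hdac11, the marker genes, the list counts by series, the covariate fits and the probe pair correlations were added after the values were seen. Exons and untranslated regions under the probes were not analysed here, beyond the stop codons shown.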

Additional observations from a re-analysis of the deposited data

How the results depend on the processing

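In all 35 alternatives 0 genes were called between the groups with limma, with 396 to 1826 at an unadjusted p under 0.05 (1113 to 1680 when 1 liver was left out). The Acsl4 difference was negative in all 35, from -0.45 to -0.38 with 1 liver left out and from -0.78 to -0.25 otherwise. Against the other members it was -0.42 to -0.35 with 1 liver left out and -0.47 to -0.30 otherwise. Slc27a4 was positive in all 35 (0.12 to 0.34). The Acsl1 difference ran from -0.34 to -0.22 with 1 liver left out and from -0.75 to -0.0024 otherwise. Under normexp background correction the bright members all moved down, Acsl1 to -0.75, Acsl4 to -0.78, Acsl5 to -0.43, Slc27a2 to -0.53 and Slc27a5 to -0.51, while Acsl4 against the other members was -0.44, and the cause was not tested. Genes called for slide series numbered 5215, against 329 with normexp, 9943 with no filter on 27481 rows and 8868 with plain background subtraction, which was added after the data were seen. Between members and gene lists 1 relation, Acsl1 with the oxidation genes, passed with the authors' deposited table and 1, the same, with centring within slide series only. The latter centring leaves the group difference in both measures. That pass therefore draws on the contrast by which the members were chosen, and nothing is read from it. The numbers in the sample titles were not taken as pairs, since the labels give them no meaning and not every pair was alike (residual correlations -0.225 to 0.586, 6 of 10 pairs over 0.1, 6 of 20 samples closest to their own number). With the number as a replicate block 0 genes were called, Acsl4 differed by -0.45 (SE 0.11) and by -0.41 against the other members. No setting shifted the median of all rows by over 0.1. The Acsl6 probes were too dim for a statement on a difference.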
